A study of Mus musculus with 4 samples.

Results

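Integrins and their ligand ICAM1 were examined in primary microglia from CD1 mice as a set of 10 genes, chosen by name from the 54532 genes of the count tables. The set held 5 integrin α chains (Itgam, Itgal, Itga4, Itga5 and Itga6), 4 β chains (Itgb1, Itgb2, Itgb3 and Itgb7) and Icam1. All 10 passed the filter of at least 10 counts summed over the 4 libraries and were among the 13811 protein-coding genes tested. The microglia had been cultured in serum-free medium and exposed for 24 h to EGCG (epigallocatechin gallate, a catechin of green tea) at 1 µM or to the DMSO vehicle, and each treatment had 2 biological replicates, numbered 1 and 2. They had been grown in mixed glial cultures from the cortex of pups and recovered after trypsin removed the astrocyte layer. Both the mixed culture and the serum-free medium contained GM-CSF, and the serum-free medium also held IL-34, TGFβ2 and cholesterol. Every library, Vehicle included, therefore comes from cells exposed to these additions. The comparison asks whether EGCG changed the RNA of these adhesion molecules.

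Integrins are receptors of 1 α and 1 β chain that bind matrix proteins or molecules on other cells, and signal in both directions across the membrane. Itgb2 (CD18) is the β chain of the leukocyte integrins. It pairs with Itgam (CD11b), the α chain of complement receptor 3 and a widely used microglia marker, and with Itgal (CD11a), whose heterodimer binds ICAM1. Itgb1 pairs with Itga4, Itga5 and Itga6 to bind VCAM1, fibronectin and laminin, respectively. Itgb3 pairs with Itgav as a receptor for vitronectin and other matrix proteins. Itgb7 pairs with Itga4 in gut-homing lymphocytes.

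The libraries held between 33805071 and 54970300 counts, and a count of 3 corresponded to between 0.0544 and 0.0936 CPM (CPM are counts scaled to a common library size, here by the TMM method of edgeR). All 10 listed microglia markers were above 1 CPM in every library, with summed levels of 5704 to 6703 CPM in Vehicle and 6258 to 6977 CPM in EGCG. Defining markers of lymphocytes and neutrophils were nearly absent. Cd3g, Cd8a, Ms4a1, Ly6g and Elane had 0 counts in all 4 libraries, and the summed lists of lymphocyte and neutrophil markers reached at most 0.961 and 0.823 CPM. The 6 fibroblast markers summed to 422 CPM (Vehicle) and 1.40 CPM (EGCG) in replicate 1, against 160.1 and 176 CPM in replicate 2. Over the 4 libraries, the astrocyte list summed to 13.8 to 19.4 CPM, the oligodendrocyte lineage list to 113 to 151 CPM, the endothelial list to 5.74 to 19.7 CPM and the platelet list to 2.83 to 5.64 CPM. The border macrophage list, described further below, summed to 460.4 to 565 CPM. Whether these cells contributed to the integrin counts was not tested.

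The leukocyte β chain led the set. Per length, as RPKM (CPM per kilobase of the gene length in the files), Itgb2 had a mean level over the 4 libraries of 464 RPKM and lay at percentiles 99.29 to 99.65 of the genes tested. Itgb1 followed at 153 RPKM, and Itgam at 57.6 RPKM, Icam1 at 40.5 RPKM, Itga5 at 39.7 RPKM and Itgal at 33.0 RPKM came next. Lower still were Itga6 at 25.7 RPKM, Itgb3 at 13.2 RPKM and Itga4 at 4.96 RPKM. Itgb7 was at the bottom with 0.156 RPKM and rested on 8 to 23 counts a library.

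The first 2 places and the last 4 places in that order held in each of the 4 libraries, since the ranges of those neighbours did not overlap. The ranges of Itgam and Icam1, of Icam1 and Itga5, and of Itga5 and Itgal did overlap. In replicate 2, Icam1 was the third highest of the set, at 45.5 RPKM in Vehicle and 48.7 RPKM in EGCG, against 33.7 and 33.4 RPKM for Itgam. With the longest coding sequence in place of the gene length, an alternative chosen after seeing the data, Icam1 moved from place 4 to 3, Itgam from 3 to 4, Itga5 from 5 to 6, Itgal from 6 to 7 and Itga6 from 7 to 5, while Itgb2, Itgb1, Itgb3, Itga4 and Itgb7 kept their places. The 2 lengths were farthest apart for Itga4, with a gene length in the files of 13978 bases and a coding length of 3096 bases.

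**Figure D1:**
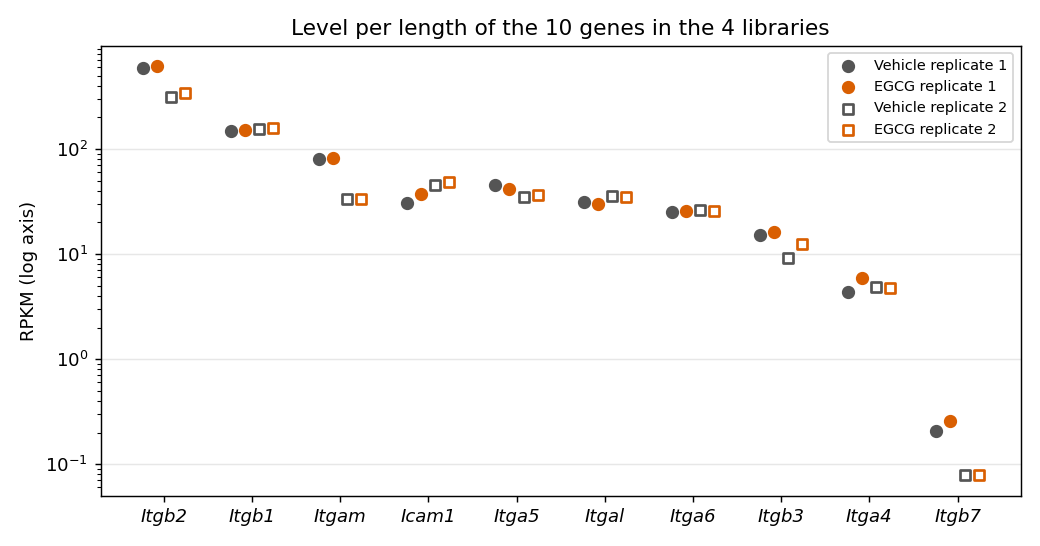
Level per length of each gene (RPKM, log axis) in the 4 libraries, ordered by the mean; filled circles are replicate 1, open squares replicate 2, grey is Vehicle and orange EGCG. Itgb2 and Itgam were lower in both libraries of replicate 2 and Icam1 higher, while Itgb1 and Itga6 lay within narrow ranges of 148 to 157 and 25.1 to 26.2 RPKM.

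The promoters of 3 members are shown because these genes behaved differently between the replicates. Itgam was lower in replicate 2 and Icam1 higher. Itgb1 was only slightly higher, at 148 (Vehicle) and 151 RPKM (EGCG) in replicate 1 and 155 and 157 RPKM in replicate 2. Windows for 6 of the 10 members were matched by symbol in the RefSeq promoter table (GRCm38.p6). Each run is the 250 bases before the RefSeq start, 5′ to 3′, and capitals mark matches on either strand to any of 5 motifs. The first was GAGGAA, the core bound by ETS factors such as PU.1 in myeloid cells. The next were GGGCGG for the factor SP1 and TGANTCA for dimers of Fos and Jun. The others were GGAANTTCC for the RelA subunit of NF-κB and TATAAA for the core promoter element of that name.
Itgam, chr7:128062390-128062639, plus strand: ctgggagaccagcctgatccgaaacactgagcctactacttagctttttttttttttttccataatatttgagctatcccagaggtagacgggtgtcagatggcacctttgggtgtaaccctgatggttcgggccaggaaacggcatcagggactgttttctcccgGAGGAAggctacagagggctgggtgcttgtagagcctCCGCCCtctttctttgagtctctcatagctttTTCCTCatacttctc
Itgb1, chr8:128685404-128685653, plus strand: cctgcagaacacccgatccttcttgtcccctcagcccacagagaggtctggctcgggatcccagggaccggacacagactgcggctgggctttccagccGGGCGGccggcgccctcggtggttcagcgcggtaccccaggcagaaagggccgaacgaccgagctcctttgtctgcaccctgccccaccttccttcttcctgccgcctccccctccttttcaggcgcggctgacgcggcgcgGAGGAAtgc
Icam1, chr9:21015690-21015939, plus strand: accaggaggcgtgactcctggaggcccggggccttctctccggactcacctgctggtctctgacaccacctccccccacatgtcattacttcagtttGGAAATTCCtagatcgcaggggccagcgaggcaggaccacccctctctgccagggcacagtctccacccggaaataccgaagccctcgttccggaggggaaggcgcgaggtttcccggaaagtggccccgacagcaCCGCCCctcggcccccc

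In these windows the Itgam promoter held GAGGAA 2 times, starting 84 and 15 bases before the start, and 1 GGGCGG starting 47 bases before it. The Itgb1 window held 1 GAGGAA and 1 GGGCGG, and that of Icam1 held 1 GGGCGG and a single match to GGAANTTCC starting 153 bases before the start. None of these matches overlapped another. Over the 32536 different windows of the same length, 23.4% held GAGGAA, 33.0% GGGCGG, 6.73% TGANTCA, 0.811% GGAANTTCC and 12.3% TATAAA. The match in Icam1 is therefore of a kind seen in few windows, while those in Itgam and Itgb1 are common, and a match of letters is a description and not a bound site. Whether any of these motifs bears on the replicate difference was not tested. Windows of Itga4, Itga5 and Itgb7 were also searched, and held 1, 3 and 0 matches. Itgal, Itga6, Itgb2 and Itgb3 had no entry.

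No integrin gene, nor Icam1, passed the test of a difference between EGCG-treated and Vehicle-treated microglia when the 4 libraries were fitted by treatment alone in edgeR (quasi-likelihood test). Of the 10 genes, 0 had an adjusted p under 0.1 (Benjamini-Hochberg over all genes tested), against a background of 0% of all 13811 genes. At an unadjusted p under 0.05 the set again held 0 genes, against 0.116% of all genes, or 16. Both counts stayed at 0 in DESeq2 without the block and when each library was left out in turn. For none of the 10 did the Vehicle and EGCG values separate, compared with 11.9% of all genes whose 2 Vehicle and 2 EGCG libraries did not overlap. The log2 fold change was positive in 8 of the 10, with a median of 0.058, and in 7486 of all 13811 genes, with a median of 0.011.

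Among the leukocyte integrins, Itgam (ENSMUSG00000030786, GRCm38 chromosome 7, 128062640 to 128118491, plus strand) had 404 CPM (Vehicle) and 417 CPM (EGCG) in replicate 1, and 169 CPM (Vehicle) and 168 CPM (EGCG) in replicate 2. The values paired by replicate and not by treatment. The means were 287 ± 166 CPM in Vehicle and 292 ± 176 in EGCG (SD, n = 2 each), and the fitted log2 fold change was 0.028 (SE, the standard error, 0.65; 95% interval -1.79 to 1.85). Within replicates 1 and 2, the EGCG to Vehicle ratio was 1.03 and 0.992, both close to 1. A second protein-coding gene model, Gm49368, overlaps Itgam on the same strand, but it had only 8 to 42 counts a library beside at least 6198 for Itgam. Genes on the other strand that overlap Icam1 (Gm47079), Itga4 (Cerkl) and Itga6 (Gm17250) had 18 to 34, 4 to 12 and 1 to 8 counts a library.

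Itgb2 (ENSMUSG00000000290, chromosome 10, 77530252 to 77565708, plus strand), the partner β chain, had 1787 CPM (Vehicle) and 1867 CPM (EGCG) in replicate 1, and 959 CPM (Vehicle) and 1051 CPM (EGCG) in replicate 2. It was slightly higher with EGCG in each replicate, by 1.04-fold (95% counting interval 1.03 to 1.06) and 1.10-fold (1.08 to 1.11). These intervals cover counting error only and not the variation between cultures. The fitted log2 fold change was 0.088 (SE 0.47, edgeR adjusted p = 1.00). With the replicate number as a block it was 0.098 (SE 0.069, edgeR adjusted p = 0.995), past no threshold in either fit.

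Itgal (ENSMUSG00000030830, chromosome 7, 127296260 to 127335138, plus strand), the CD11a chain of the ICAM1 receptor, had 204 CPM (Vehicle) and 198 CPM (EGCG) in replicate 1, and 235 CPM (Vehicle) and 229 CPM (EGCG) in replicate 2. EGCG lay below Vehicle in each replicate, at ratios of 0.969 and 0.975, and both counting intervals included 1. It was the only member lower in both replicates, with a fitted log2 fold change of -0.040 (SE 0.17).

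Icam1 (ENSMUSG00000037405, chromosome 9, 21015985 to 21028817, plus strand) encodes the adhesion molecule that the leukocyte integrins bind, and its expression in many cells is raised by inflammatory cytokines. It had 135 CPM (Vehicle) and 161 CPM (EGCG) in replicate 1, and 198 CPM (Vehicle) and 212 CPM (EGCG) in replicate 2. EGCG was thus higher within each replicate, by 1.20-fold (95% counting interval 1.15 to 1.25) and 1.07-fold (1.04 to 1.10), but EGCG replicate 1 remained below Vehicle replicate 2. Over the groups, 166 ± 45.1 CPM in Vehicle and 187 ± 36.0 in EGCG (SD, n = 2 each) gave a fitted log2 fold change of 0.17 (SE 0.27, edgeR adjusted p = 1.00). The sign turned, to -0.086 without Vehicle replicate 1 and to -0.075 without EGCG replicate 2.

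The replicate block changed the reading of Icam1 and Itgb3 at the unadjusted threshold only. For Icam1 the blocked log2 fold change was 0.18 (SE 0.060, unadjusted p = 0.0285 and adjusted p = 0.995 in edgeR, and unadjusted p = 0.0468 in DESeq2). With the block, 2 of the 10 genes, both higher in EGCG, had an unadjusted p under 0.05 in edgeR and in DESeq2. Over all genes tested the same rule took 3.21% in edgeR and 1.11% in DESeq2. No member had an adjusted p under 0.1 in any of these fits.

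Itgb3 (ENSMUSG00000020689, chromosome 11, 104608000 to 104670476, plus strand), the β chain of the vitronectin receptor, had 90.2 CPM (Vehicle) and 94.9 CPM (EGCG) in replicate 1, and 54.1 CPM (Vehicle) and 72.9 CPM (EGCG) in replicate 2. Most of its difference came from replicate 2, where EGCG was 1.35-fold higher (95% counting interval 1.28 to 1.42), compared with 1.05-fold in replicate 1 (0.999 to 1.11). The fitted log2 fold change was 0.22 (SE 0.32, edgeR adjusted p = 1.00). It was 0.015 without EGCG replicate 1, 0.63 without Vehicle replicate 1 and 0.36 without EGCG replicate 2, and its sign turned, to -0.12, without Vehicle replicate 2. With the block it was 0.25 (SE 0.097, unadjusted p = 0.0466 and adjusted p = 0.995 in edgeR, and unadjusted p = 0.0421 in DESeq2). Whether the 2 replicates differed in the size of this difference could not be tested with 1 library per arm.

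The pattern of Itga4 (ENSMUSG00000027009, chromosome 2, 79255426 to 79333123, plus strand), the α chain that binds VCAM1, was the opposite of that of Itgb3. It had 61.2 CPM (Vehicle) and 81.9 CPM (EGCG) in replicate 1, and 67.5 CPM (Vehicle) and 67.0 CPM (EGCG) in replicate 2, so that EGCG replicate 1 stood above the rest. EGCG was 1.34-fold higher in replicate 1 (95% counting interval 1.26 to 1.42) and 0.993-fold in replicate 2 (0.943 to 1.04). Its fitted log2 fold change of 0.21 (SE 0.16, edgeR adjusted p = 1.00) had the smallest unadjusted p of the set without the block, and was 0.20 (SE 0.11, edgeR adjusted p = 0.995) with it. Without EGCG replicate 1 the fold change of Itga4 was 0.058, and without EGCG replicate 2 it was 0.32.

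Of the fibronectin and laminin receptor chains, Itga6 and Itgb1 varied little and Itga5 varied more. Itga5 (ENSMUSG00000000555, chromosome 15, 103344286 to 103366763, minus strand) had 226 CPM (Vehicle) and 205 CPM (EGCG) in replicate 1, and 174 CPM (Vehicle) and 179 CPM (EGCG) in replicate 2. EGCG was at 0.908-fold of Vehicle in replicate 1 (95% counting interval 0.878 to 0.939) and at 1.03-fold in replicate 2 (0.996 to 1.06). The fitted log2 fold change was -0.059 (SE 0.20). Itga6 (ENSMUSG00000027111, chromosome 2, 71745616 to 71858416, plus strand) had 227 CPM (Vehicle) and 234 CPM (EGCG) in replicate 1, and 236 CPM (Vehicle) and 230 CPM (EGCG) in replicate 2, with neither treatment nor replicate set apart. Itgb1 (ENSMUSG00000025809, chromosome 8, 128685654 to 128733200, plus strand), their shared β chain, had 602 CPM (Vehicle) and 617 CPM (EGCG) in replicate 1, and 632 CPM (Vehicle) and 640 CPM (EGCG) in replicate 2. Its log2 fold change was 0.026 with a 95% interval from -0.41 to 0.47, and that of Itga6 was 0.0032 with an interval from -0.37 to 0.37. These intervals leave room for a change of either sign.

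Itgb7 (ENSMUSG00000001281, chromosome 15, 102215995 to 102231944, minus strand), the β chain known from lymphocytes, was detected in every library with 19 counts (Vehicle) and 23 counts (EGCG) in replicate 1, and 8 counts (Vehicle) and 12 counts (EGCG) in replicate 2. These equal 0.579 and 0.718 CPM in replicate 1 and 0.218 CPM in both libraries of replicate 2, above the level of 3 counts. Its fitted log2 fold change was 0.21 (SE 0.95). The counting intervals of the EGCG to Vehicle ratio ran from 0.646 to 2.41 in replicate 1 and from 0.375 to 2.81 in replicate 2, so a difference of that order was not detectable at this depth.

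**Figure D2:**
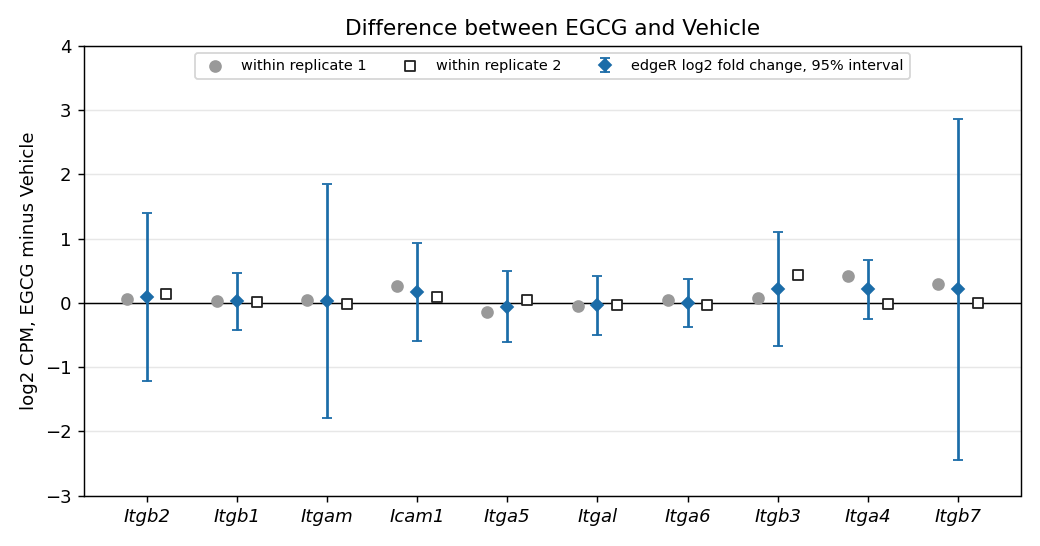
Difference between EGCG and Vehicle for each gene on the log2 CPM scale; diamonds are edgeR log2 fold changes with 95% intervals, grey circles the difference within replicate 1 and open squares that within replicate 2. Every interval includes 0, and Icam1, Itgb2, Itgb3 and Itgb1 are above 0 in both replicates.

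The other genes of integrin adhesion gave no call either. Of 82 genes in 6 lists, 74 were tested, and 0 had an unadjusted p under 0.05 without the block, 28 having a positive and 46 a negative log2 fold change. The median log2 fold change was -0.091 over 13 other α chains, -0.0089 over 3 other β chains, -0.23 over 7 immunoglobulin-type ligands, -0.15 over 16 matrix ligands, -0.0038 over 13 activators and adaptors and -0.0063 over 22 signalling genes, against 0.011 over all genes tested. The negative medians of the other α chains, immunoglobulin-type ligands and matrix ligands did not hold in both replicates. Within replicate 1 the median differences of these lists were -0.16, -0.49 and -0.38. Within replicate 2 they were 0.13, 0.13 and 0.18. The partner chains of the members differed widely in level. Itgax (CD11c), which also pairs with Itgb2, had a mean of 135 RPKM and a fitted log2 fold change of 0.060 (SE 0.20). Itgb5 and Itgav, whose products form a vitronectin receptor, had means of 120 and 12.1 RPKM and log2 fold changes of -0.0089 and -0.091. Itgad and Itga9 were at 3.78 and 2.09 RPKM and Itga8 at 0.363 RPKM, and the α chains Itga1, Itga2, Itga3, Itga7, Itga10, Itga11, Itga2b and Itgae were lower still, with means of 0.0193 to 0.144 RPKM.

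The ligands of the set differed widely in level. C3, whose fragment is bound by complement receptor 3, was at 231 RPKM and Fn1 (fibronectin) at 113 RPKM, whereas Vcam1 and Icam2, ligands of Itga4 and Itgal, were at 0.255 and 0.513 RPKM. In replicate 1, where the fibroblast markers also differed, Vcam1 had 2.47 CPM (Vehicle) and 0.468 CPM (EGCG), and in replicate 2 it had 2.92 and 3.21 CPM. For the activators Tln1 (talin) and Fermt3 (kindlin-3), which bind β chain tails, the log2 fold changes were 0.012 and -0.047. Without the block, the smallest unadjusted p of each list belonged to Itga2, Itga11 and Itga7 among the other α chains, to Itgb8, Itgb4 and Itgb5 among the β chains, to F11r, Icam2 and Vcam1 among the immunoglobulin-type ligands, to Lamc1, Lama5 and Lama4 among the matrix ligands, to Cyth1, Fermt2 and Itgb1bp1 among the activators and adaptors, and to Zyx, Parva and Bcar1 among the signalling genes. All had an adjusted p of 1.00 in edgeR. Of these 18 genes, 12 were at or below 5 CPM in every library. The other 6 were Itgb5 (log2 fold change -0.0089, SE 0.23), the laminin chain Lamc1 (-0.28, SE 0.19), Cyth1 (-0.21, SE 0.13), F11r (-0.19, SE 0.15), the focal adhesion protein gene Zyx (-0.15, SE 0.14) and Itgb1bp1 (0.12, SE 0.23). With the block, Vcl (higher), Lamc1 and Cyth1 (both lower) had an unadjusted p under 0.05 in edgeR, 3 of 74 against 3.21% of all genes. In DESeq2 with the block, Lamc1 and Dab2 (both lower) passed that threshold, against 1.11% of all genes, while Vcl (unadjusted p = 0.154 in DESeq2) and Cyth1 (0.0509) missed it.

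The larger differences among these genes lay between the 2 biological replicates, as they did over all genes tested. In 9 of the 10 (all but Itga4) the replicate term exceeded the blocked treatment term in size. The share of all genes for which it did so was not counted. For Itga6 both terms, 0.019 and 0.0032, were below their SE of 0.050. Over all genes tested, the median absolute log2 difference was 0.377 (Vehicle) and 0.353 (EGCG) between replicates, and 0.116 and 0.09996 between treatments in replicates 1 and 2. In an edgeR fit with treatment and replicate as terms, 7 of the 10 had an adjusted p under 0.1 for the replicate term, compared with 53.5% of all genes tested. Higher in replicate 2 were 2 of the 10 (Icam1 and Itgal), against 27.7% of all genes, and lower were 5 (Itgam, Itgb2, Itgb3, Itga5 and Itgb7), against 25.7%. The CPM of the 2 replicates did not overlap for 8 of the 10, against 76.5% of all genes, the exceptions being Itga4 and Itga6. The set was not tested against the other genes. These p-values compare the libraries numbered 1 with those numbered 2 and measure only the spread between these 4 libraries, since the labels do not say whether the Vehicle and EGCG libraries of 1 number came from the same culture.

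Partners did not all move the same way. Itgam was 2.39-fold higher in replicate 1 than in replicate 2 in the Vehicle libraries and 2.48-fold higher in the EGCG libraries, and the replicate term was -1.28 on the log2 scale (SE 0.050, adjusted p = 0.000143 in edgeR). Its β chain Itgb2 was lower in replicate 2 as well, with a replicate term of -0.86 (SE 0.069, adjusted p = 0.000677 in edgeR). Itgal, the other α chain of the set that pairs with Itgb2, went the other way, with a replicate term of 0.21 (SE 0.047, adjusted p = 0.0191 in edgeR). Icam1 was higher in replicate 2 by 0.48 on the log2 scale (SE 0.060, adjusted p = 0.0027 in edgeR).

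Itgb3 was lower in replicate 2 by a log2 difference of -0.56 (SE 0.097, adjusted p = 0.00795 in edgeR), and by less in the EGCG libraries (-0.38) than in the Vehicle libraries (-0.74). For Itga5 the replicate term was -0.29 (SE 0.061, adjusted p = 0.0155 in edgeR). Itgb7 had a replicate term of -1.56 (SE 0.58, adjusted p = 0.0828 in edgeR) on its few counts, and was not called in DESeq2 (adjusted p = 0.320) or in edgeR with no filter on low counts (adjusted p = 0.104). Itgb1, Itga6 and Itga4 were not called, with replicate terms of 0.062, 0.019 and -0.077, and scaling by total counts alone called Itgb1 (0.14, adjusted p = 0.0608 in edgeR) and turned the sign for Itga4 (0.0024). Fits with replicate as the only term were added after seeing the data, and each library was left out in turn. The log2 difference then ran from -1.31 to -1.26 for Itgam, -0.92 to -0.78 for Itgb2 and -0.76 to -0.33 for Itgb3. It ran from 0.18 to 0.24 for Itgal, 0.35 to 0.61 for Icam1, -0.36 to -0.22 for Itga5 and -1.71 to -1.40 for Itgb7. For Itgb1 and Itga6 it ran from 0.044 to 0.087 and from -0.0028 to 0.049, and for Itga4 from -0.29 to 0.14. Only the sizes are given, since a library left out leaves 1 in its replicate.

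Microglia markers moved in both directions between the replicates as well, with 5 of 10 higher and 3 of 10 lower in replicate 2 at an adjusted p under 0.1, beside the 27.7% and 25.7% of all genes. Csf1r, the receptor on which microglia depend, had 1195 CPM (Vehicle) and 1264 CPM (EGCG) in replicate 1, and 2373 and 2403 CPM in replicate 2. The border macrophage list of 4 genes summed to between 460.4 and 565 CPM, and its 2 abundant genes moved in opposite directions. Siglec1 had 313 CPM (Vehicle) and 319.6 CPM (EGCG) in replicate 1, and 133 CPM in both libraries of replicate 2, whereas Mrc1 had 214 and 245 CPM in replicate 1, and 354 and 327 CPM in replicate 2. The part of cell composition in the replicate difference was not tested, and in bulk RNA fewer cells of a type and less RNA per cell cannot be told apart.

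**Figure D3:**
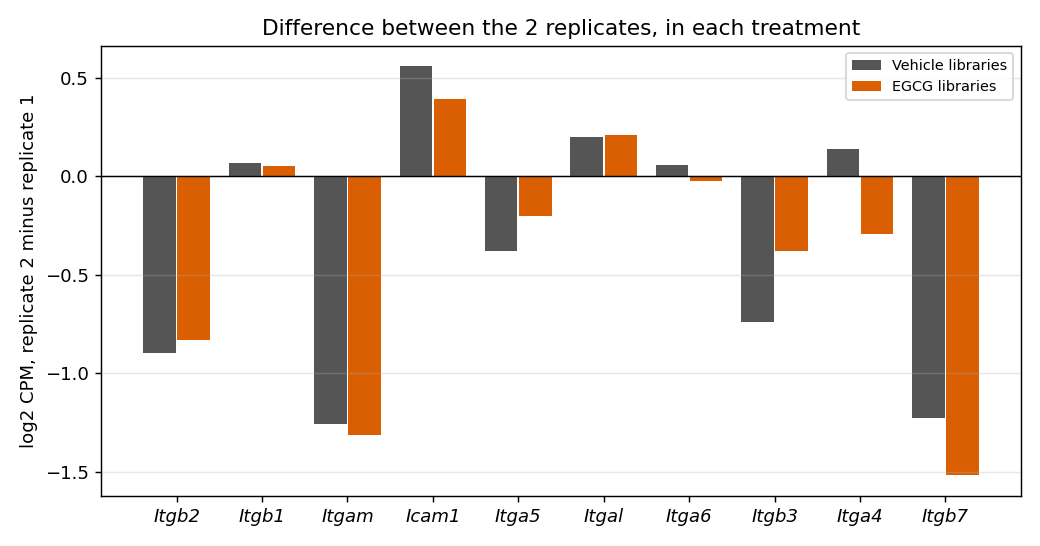
Difference between replicate 2 and replicate 1 on the log2 CPM scale for each gene, in the Vehicle libraries (grey bars) and in the EGCG libraries (orange bars). The bars of a gene point the same way except for Itga4 and Itga6, and Itgam, Itgb2 and Itgb7 are at -0.83 or lower in both treatments.

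The balance of chains at the RNA level differed between the replicates. Itgb2 made up 68.6% (Vehicle) and 69.2% (EGCG) of the summed RPKM of the β chains (Itgb1 to Itgb8 and Itgb2l) in replicate 1. In replicate 2 it made up 51.2% and 53.2%. Among the α chains that pair with Itgb2 (Itgam, Itgal, Itgax and Itgad), Itgam took 30.7% (Vehicle) and 31.5% (EGCG) in replicate 1, and 17.6% and 16.6% in replicate 2. Itgax held the largest share in all 4 libraries, between 55.5% and 64.4%.

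The ratio of Itgam to Itgal was 2.59 (Vehicle) and 2.75 (EGCG) in replicate 1, but 0.941 and 0.956 in replicate 2, so the order of these α chains by RPKM differed between the replicates. The ratio of Itgb1 to Itga6 stayed between 5.84 and 6.15 in all 4 libraries. Within a replicate, EGCG and Vehicle differed by at most 2.41 percentage points in the shares of β chains and Itgb2-pairing α chains. The largest difference between replicates in those shares was 16.03 in EGCG and 17.4 in Vehicle. Some ratios did differ between treatments within a replicate. Itgb1 to Itga4 was 33.7 (Vehicle) and 25.8 (EGCG) in replicate 1, and 32.1 and 32.7 in replicate 2. Itgb1 to Itgb3 was 9.65 (Vehicle) and 9.40 (EGCG) in replicate 1, and 16.9 and 12.7 in replicate 2. Shares of RNA per length describe transcripts only, and surface receptors were not measured here.

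**Figure D4:**
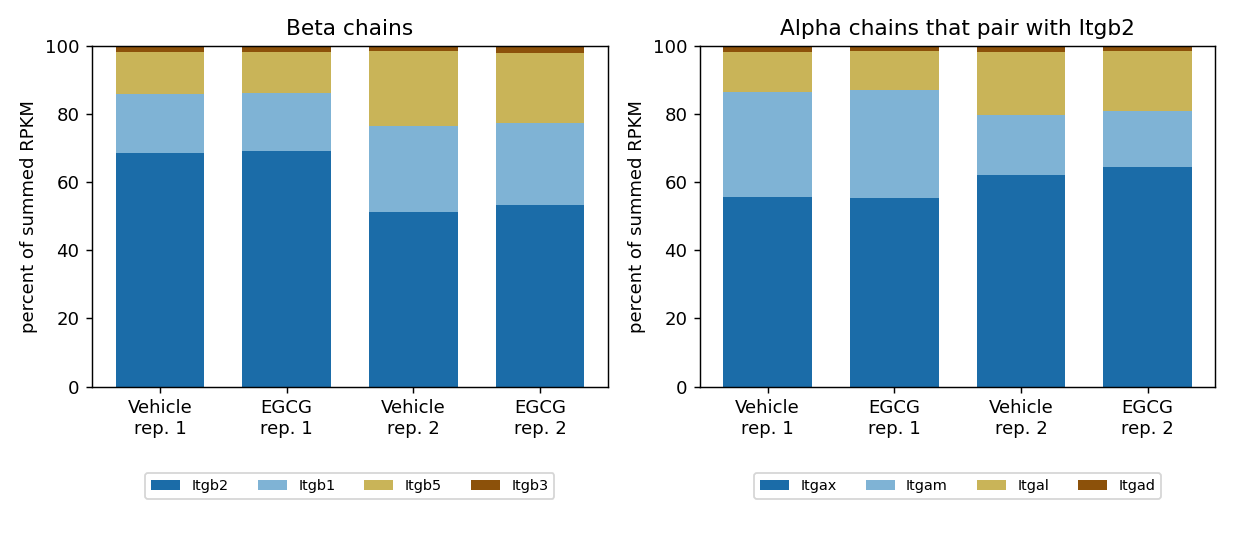
Share of the summed RPKM (percent) taken by the β chains (left) and by the α chains that pair with Itgb2 (right) in each library; Itgb7, at most 0.0293%, is too small to see. Itgb2 and Itgam take larger shares in both libraries of replicate 1 than in those of replicate 2.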

How the data were processed

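Poly-A RNA of 4 libraries, 2 EGCG and 2 Vehicle, was sequenced as strand-specific paired-end reads. After removal of adapter and low-quality reads, alignment used HISAT2 and GRCm38.p6. The values deposited by the authors are raw counts per gene, unnormalised, in 1 table per replicate that holds 1 Vehicle and 1 EGCG library. The counting program, its strand setting and its handling of shared reads are not given in the sources used here. The gene lengths in the files equalled the union of exons in GENCODE M21 for all 10 members.

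Both tables were merged by Ensembl identifier (54532 genes), leaving out 697 and 329 loci assembled separately in each table. The test was edgeR 4.0.16 (TMM, quasi-likelihood) under R 4.3.3, with DESeq2 1.42.0 as an alternative, over protein-coding genes with at least 10 counts in sum. Thresholds were an unadjusted p under 0.05 and an adjusted p under 0.1, and a prior count of 2 was added for log2 CPM. The smallest two-sided permutation p for 2 against 2 libraries is 0.333, so p-values rest on the models and measure the spread between these libraries. Exact 95% intervals of ratios within a replicate cover counting error only.

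The members, the 6 pathway lists and the 9 marker lists were chosen with earlier results of these data known. All members were named, and of each pathway list the genes with the smallest p or a stated role. Each replicate number marks 1 deposited table, with loci assembled for that table, and same-numbered libraries deviated together (r = 0.64 across genes, which are not independent). Alternatives covered scaling, filters, gene classes, DESeq2, a block by replicate number, and fits without each library in turn.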

Additional observations from a re-analysis of the deposited data

How the results depend on the processing

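No member had an adjusted p under 0.1 for EGCG against Vehicle in the fit reported or under any of the 14 alternatives. The replicate block in edgeR or DESeq2 gave 2 members at an unadjusted p under 0.05 (Itgb3 and Icam1), against 0 without it, and changed no other call of a member. The count of all genes at an unadjusted p under 0.05, 16 as reported, was 3 with 10 counts required in every library, 6 with filterByExpr, 35 with all biotypes, 444 and 153 with the replicate block in edgeR and DESeq2, and 8 to 134 when each library was left out. The median log2 fold change of the members, 0.058 as reported, was 0.022 by total counts, 0.016 with 10 counts in every library (which drops Itgb7), and -0.054 to 0.16 when each library was left out.

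Under other scalings, filters and tools, signs turned for Itga6, Itgam and Itgb1, whose log2 fold changes were 0.0032, 0.028 and 0.026 as reported. Itga6 was at -0.0039 with DESeq2-style factors, -0.015 with upper-quartile factors, -0.030 by total counts, -0.0073 with 10 counts in every library, -0.013 with filterByExpr, and -0.0039 and -0.0040 with DESeq2 without and with the replicate block. Itgam was at -0.0019 and -0.015 with upper-quartile factors and total counts, and Itgb1 at -0.0058 by total counts. Leaving out each library turned the sign at least once in 9 of the 10 members, Itgb3, Itgb7 and Icam1 among them, and gave -0.77 to 0.79 for Itgam, -0.39 to 0.61 for Itgb2, -0.18 to 0.062 for Itgal, -0.25 to 0.14 for Itga5, -0.026 to 0.016 for Itga6, -0.032 to 0.053 for Itgb1, -0.12 to 0.63 for Itgb3, -0.86 to 1.07 for Itgb7 and -0.086 to 0.46 for Icam1, against 0.058 to 0.32 for Itga4. A library left out leaves 1 in its arm, which is assumed to vary like the others.

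With all 4 libraries, 6 members were called for the replicate term in DESeq2, with no filter and with 10 counts in every library. By total counts 8 were called, and 7 in the fit reported and the remaining alternatives. Over all genes the calls were 4969 of 13811 in DESeq2, 7260 of 16257 with no filter and 7489 of 11620 with 10 counts in every library. They were 7856 of 13811 by total counts, against 7382 as reported. Itgb7 was lost in DESeq2 and with no filter. The sign of the replicate term turned for Itga6 with upper-quartile factors (-0.042), 10 counts in every library (-0.0089) and replicate alone without Vehicle replicate 1 (-0.0028). For Itga4 it turned by total counts (0.0024) and with replicate alone without EGCG replicate 1 (0.14). With treatment in the fit, leaving out a library leaves no residual degrees of freedom for that term. The causes were not tested. Itgb7 rested on the fewest counts of the members, at 8 to 23 a library.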
